A study of Drosophila melanogaster with 2 samples.

Results

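Chromatin immunoprecipitation with sequencing (ChIP-seq) mapped binding of Eip74EF in whole Drosophila melanogaster embryos, and the peak summits that fell inside protein-coding sequence are described here. A summit, the single base that the authors' peak caller gave as the top of a peak, was kept when it lay in an annotated coding segment of any transcript, more than 500 bp from every transcription start site (TSS) of a protein-coding gene and in no untranslated region (UTR) of any transcript. In the list called on pooled reads, 337 of 30000 summits met this rule (1.12%, 95% exact binomial interval 1.01 to 1.25%), in 299 genes. Of these, 14 were also in the list that had passed the authors' irreproducible discovery rate (IDR) step, which holds exactly the 5004 peaks of highest pooled signal. All embryos carried the same transgene, a C-terminal fusion of Eip74EF to enhanced green fluorescent protein (the Eip74EF-GFP strain), were 8 to 16 h old and of both sexes, and no treatment is named in the labels. Per the sample description, the precipitation used an antibody to the tag, while the antibody field of the labels names Eip74EF. There was 1 group of 2 biological replicates, numbered 1 and 3, and no untagged or other control group, so nothing was tested between conditions and all shares below are descriptions of peak lists. Intervals on shares cover counting error over peaks only. Whole embryos mix all tissues, and a weak peak present in all cells cannot be told apart from a strong peak in a few cells. The labels do not state which promoter drives the fusion or whether a further copy of the gene is present.

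Eip74EF belongs to the early genes that the steroid hormone ecdysone switches on. It encodes a transcription factor with an ETS domain, a winged helix-turn-helix fold that contacts the core GGAA in the major groove of DNA, with flanking bases setting how well a given family member binds. Such factors are best known at promoters and at enhancers in introns or between genes, whereas coding sequence is also constrained by the codons it must carry.

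The sequences shown here are stretches of 30 bases around the ETS consensus CCGGAAGT, which most coding exon summits did not hold. This octamer was within 50 bp of 12 of the 337 summits, and 10 of the 12 are shown because they are the most complete ETS matches among the coding exon summits. Capitals mark the octamer, each sequence is written 5′ to 3′ on the strand that reads CCGGAAGT, and coordinates are on assembly dm6.

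mthl15, chr2L:10237663-10237692, plus strand: ttgggcaagatCCGGAAGTtcactgatgtt
Cda5, chr2L:34188-34217, minus strand: cagcatctcaaCCGGAAGTactcacatact
Pino, chr2L:1115877-1115906, minus strand: gcatcagctacCCGGAAGTcgtggccggag
CG4004, chrX:12747303-12747332, minus strand: ggacgcatacgCCGGAAGTggctggccatc
ine, chr2L:4473899-4473928, plus strand: gggcctgtaatCCGGAAGTggccatcgata
AttD, chr3R:17625850-17625879, plus strand: cctcaacgccaCCGGAAGTgccaatcatca
RhoGEF3, chr3L:289191-289220, plus strand: tacaccctcggCCGGAAGTggctccaccag
Ask1, chr3R:19881701-19881730, plus strand: atacccaacacCCGGAAGTacgtggagacg
Mco4, chrX:17853625-17853654, minus strand: agcgaccggaaCCGGAAGTggcgccatcgg
CG7231, chr2L:7986285-7986314, minus strand: tactcgccatcCCGGAAGTcggctccccag

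The IDR summits in mthl15 and Cda5 are among them. The remaining IDR summit with an ETS string, in RasGAP1, held the shorter CGGAAG, in capitals in the next sequence. The strongest IDR summits held no CGGAAG, and the 30 bases around the top 3 are shown beside it for contrast, on the plus strand, with any GGAA in capitals.

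RasGAP1, chr3L:9842586-9842615, plus strand: tgggtggtgaggCGGAAGtggcgttgtttg
Pde1c, chr2L:11816558-11816587, plus strand: ttaggccgcagcgccatctgccggctccgc
CG5895, chr3L:16037139-16037168, plus strand: ttGGAAatatttaatttgtactgaattgta
CG8492, chr3L:7729219-7729248, plus strand: ggtggccgtaaatttaatcacctcattgcg

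Coding exons held few peaks for their size, and these peaks were weak. Bases that met the position rule made up 13.3% of the called bases on the 6 arms (17.8 Mb) and had 19 summits per Mb, against 276 per Mb in introns and 513 per Mb within 500 bp of a TSS. The position is what the rule used, so these densities are given without a test. Peak signal, the authors' value for each peak relative to a control library, served to rank peaks within a list. The 337 summits ranged from 37.5 to 454 in the pooled list with a median of 54.3, against medians of 74.4 for 14501 intron summits and 108 for 7868 promoter summits. Their median rank was 22027 of 30000. Coding exons held 0.280% of the IDR peaks, 0.600% of the next 9996 peaks by signal (95% exact interval 0.458 to 0.772%) and 1.75% of the lower 15000 (1.55 to 1.98%). The coding share therefore rose with falling signal, as did the intron share (41.2%, 46.4% and 52.0%), while the promoter share fell from 41.2% to 31.4% and 17.8%.

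By arm, coding exon summits were most numerous on 3L, with 94, and 2L had 67 of them, 3R 64, 2R 58, X 51 and the fourth chromosome 3. Per Mb of coding bases, 3L had 27.3, 2L 20.4, 2R 16.9, X 16.2, 3R 15.1 and the fourth chromosome 12.3. Arm counts of all pooled peaks are not set beside these values, so they are not shown to be particular to coding exons.

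Over the whole pooled list, fewer coding exon summits than other summits were found in both replicates, but among peaks of like rank the shares were close. Of the 337, 14 (4.15%, 95% exact interval 2.29 to 6.87%) were in the IDR list, against 16.7% of all pooled peaks, 14.2% of intron summits (13.7 to 14.8%) and 26.2% of promoter summits. The next lowest class was the 3′ UTR with 8.69% (6.50 to 11.3%), whose interval overlaps that of coding exons. Since the IDR list is a cut on pooled signal, these shares restate the weakness of coding exon peaks and are no separate measure of how well they recurred. A summit within 100 bp was present in both replicate lists for 106 coding exon summits (31.5%, 26.5 to 36.7%), against 49.8% of all pooled peaks, 47.7% of intron and 58.4% of promoter summits. Another 182 (54.0%) had one in a single replicate and 49 (14.5%) in neither. Replicate 1 matched 193 (57.3%) and replicate 3 matched 201 (59.6%), against 61.7% and 78.0% of intron summits. The pooled list was called on the reads of both replicates, so some overlap is built in. In the stronger 15000 pooled peaks, 59 of 74 coding exon summits (79.7%, 68.8 to 88.2%) were in both replicates, against 78.0% of all peaks, 78.7% of intron and 75.7% of promoter summits. In the lower 15000, 47 of 263 were (17.9%, 13.4 to 23.0%), against 21.6% of all peaks, 21.2% of intron and 24.5% of promoter summits. Called on 1 replicate alone, the list of replicate 1 held 542 coding exon summits and that of replicate 3 held 335, each of 30000.

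**Figure D1:**
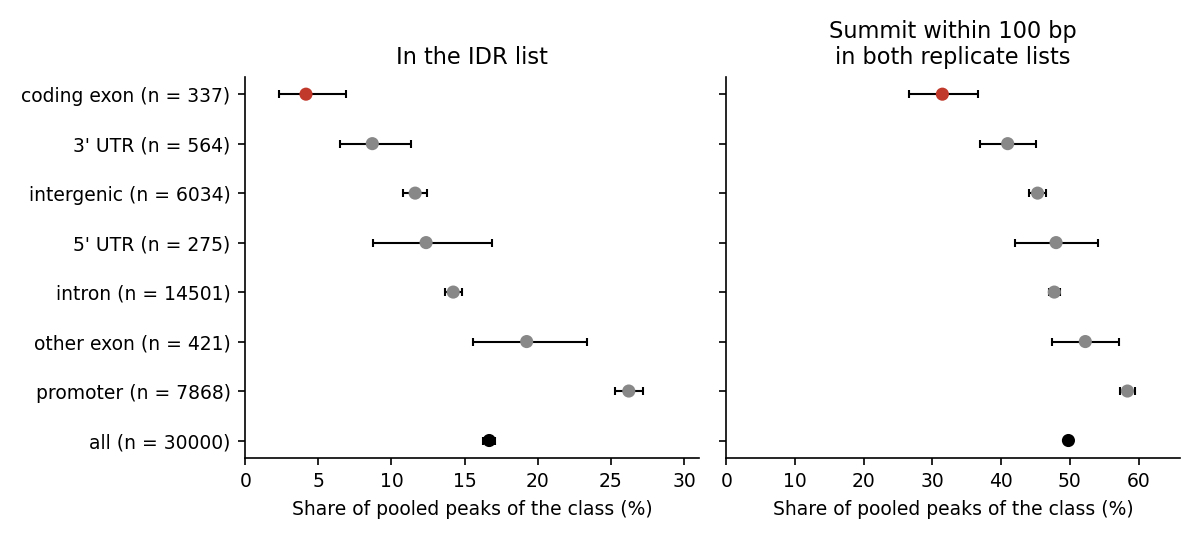
Share of pooled peaks in the IDR list (left) and with a summit within 100 bp in both replicate lists (right) for each position class; points are shares in percent, bars 95% exact binomial intervals, and n the number of peaks. Coding exon summits, in red, have the lowest share in both panels, 4.15% and 31.5%, over peaks of all ranks.

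Within the 106 summits found in both replicates, the replicate lists gave like orders of strength. The Spearman correlation of their ranks across these regions, which are not replicates and share their libraries, was 0.620, against 0.744 over all 14940 pooled peaks found in both. The median ratio of replicate 3 to replicate 1 signal was 1.45, and 1.66 over all 14940, on scales that each library's depth can set. It ranged from 0.544 to 4.66 among the 106. The depth of the libraries is unknown, since no read counts were analysed.

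**Figure D2:**
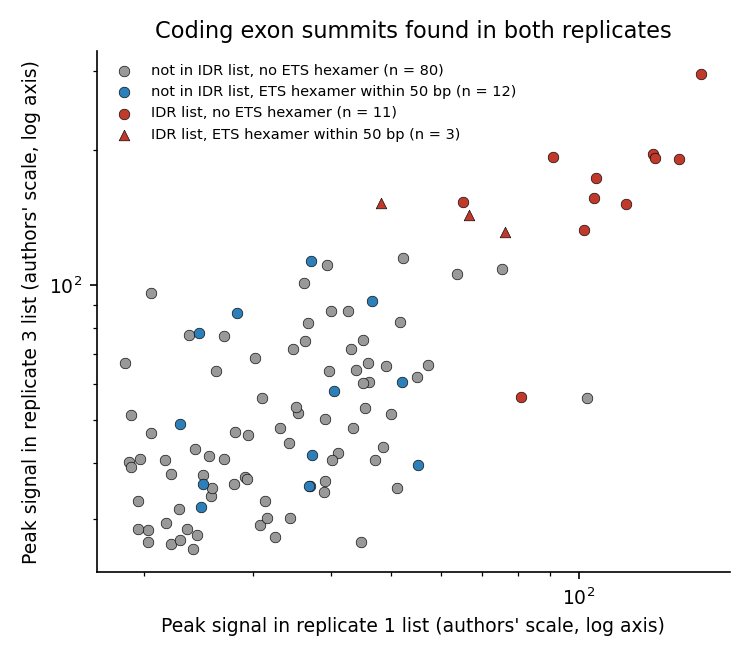
Signal of the replicate 1 peak (x axis) and replicate 3 peak (y axis) nearest to each of the 106 coding exon summits found in both replicate lists, on log axes and the authors' scales; each point is 1 summit. The 14 IDR summits, in red, lie towards the upper right, and the 3 with an ETS hexamer (triangles) are among the weaker of them in replicate 1.

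The 14 IDR summits lay in 14 genes, 4 of them within 50 bp of the end of a coding segment, the top 2 by signal included. Pde1c, which encodes a phosphodiesterase that breaks down cyclic nucleotides (FBgn0264815, minus strand), had its summit at 2L 11816572, in the last of 8 coding segments and 11 bp from its end, next to the 3′ UTR. Its signal was 454 in the pooled list, 157 in replicate 1 and 295 in replicate 3. The uncharacterised gene CG5895 (FBgn0036560) had the second, at 3L 16037153, 6 bp from the end of the last of 4 coding segments and also beside the 3′ UTR, with signals of 349.6 pooled, 145 in replicate 1 and 191 in replicate 3. At 30.7% GC within 50 bp, the CG5895 summit was the most AT-rich of the 14, and the Pde1c summit with 70.3% the most GC-rich. In CG15822 (3L 2160109; signals 277, 107 and 173, in the same order), the summit was 4 bp from an intron.

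Some other IDR summits lay deep inside long coding segments. That of CG8492 (3L 7729233; pooled signal 336, replicate 1 132, replicate 3 196) was 1325 bp from the nearer end of a segment of 4080 bp, and the nearest other summit was 2697 bp away. The CG8492 base also lies in an intron of another gene. In btsz, which encodes a synaptotagmin-like protein, the summit at 3R 14819983 was 1300 bp inside a segment of 7035 bp. This segment is coding in 2 of 9 btsz transcripts and intronic in at least 1 other. The btsz peak had the lowest pooled signal of the 14, 186, and was the only one that was weaker in replicate 3 (56.3, rank 13950) than in replicate 1 (80.9, rank 4334). Sdb had its summit at 2R 14186511, 692 bp inside a segment of 1533 bp (signals 313, 132 and 193), with a second coding exon summit 200 bp away that was the strongest outside the IDR list (183, 75.3 and 109). The summit of bif, the gene of a cytoskeletal protein of photoreceptors, at X 11681838 (290.1, 91.0 and 193), was nearer an end. It lay 120 bp from an intron, in a segment of 2537 bp. Like that of Sdb, it had a neighbour in the same segment, 203 bp away and weak (41.4).

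In 4 further IDR genes the summit was 34 to 108 bp from a segment's end. Socs36E, a feedback inhibitor of JAK/STAT signalling, had a summit at 2L 18141795 (235, 102 and 133) that lay 207 bp from a stronger IDR summit in an intron (259). Gpdh1, the glycerol-3-phosphate dehydrogenase gene, had one at 2L 5946078 (194, 65 and 154), 200 bp from an intron summit with a signal of 561. These 2 were the only IDR members with a stronger summit within 500 bp. The summit of rt, which encodes a protein O-mannosyltransferase, at 3L 11586845 (268, 106 and 157) was 108 bp from the end of the first of 4 coding segments, and that of otp, a homeodomain factor gene, at 2R 20884569 (254, 119 and 152) was 74 bp from the end of the last of 7.

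All 3 IDR summits with an ETS hexamer ranked in the weaker part of the 14. The summit of mthl15, a gene of the Methuselah-like receptor family, at 2L 10237685 had signals of 207 pooled, 66.5 in replicate 1 and 143 in replicate 3, and the octamer printed for it above was centred 7.5 bp away. RasGAP1, which encodes a GTPase-activating protein for Ras, had its summit at 3L 9842581 (204, 76.1 and 132) with the hexamer 19.5 bp away. In Cda5, a chitin deacetylase gene, the summit at 2L 34221 (199.9, 48.1 and 153) had the octamer within 20 bp, in a segment that is coding in 5 of 8 transcripts, at a base that is intronic in another transcript of the gene. Across the 14, ranks were 1237 to 9953 in replicate 1 and 1081 to 13950 in replicate 3, and 13 of 14 had the higher value in replicate 3. Higher values in replicate 3 were common, with a median ratio to replicate 1 of 1.66 over all 14940 pooled peaks found in both.

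Outside the IDR list, the 10 strongest coding exon summits ranked 5101 to 7867 in the pooled list. After Sdb came CG1607 (pooled signal 172), scrib, a scaffold gene of epithelial polarity (169), bun, a TSC22-family gene (166), and the nuclear receptor gene Hnf4 (159.8). They were followed by Eip63F-1, an ecdysone-induced gene for a calcium-binding protein (148), klar, a gene of nuclear positioning (141), Gbs-70E (141), the chromatin remodeller gene Iswi (136) and toc (134). Of these, 9 were in both replicate lists, while klar was 156 bp from its nearest replicate 1 summit. The Hnf4 and Iswi summits held the ETS hexamer within 50 bp. As in btsz, the scrib peak was weaker in replicate 3 than in replicate 1, with signals of 103 in replicate 1 and 56.0 in replicate 3.

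Coding exon summits lay close to the ends of coding segments. The median distance from summit to nearer end was 62 bp, against 171 bp over all coding bases that met the rule. Within 50 bp of an end lay 137 summits (40.7%), against 20.8% of those bases, and within 150 bp 261 (77.4%), against 46.6%. The segments were shorter, with a median of 368 bp against 827 bp per coding base. A shorter segment itself limits the distance to an end. Distances were not compared among segments of like length. The nearer end bordered an intron for 231 summits (68.5%) and a UTR, directly or past the stop codon, for 48 and 51. The deposited interval of the peak, mostly 456 bp wide, was coding over a median of 61.8% of its length and wholly coding in 51 cases. In other transcripts, 33 of the 337 bases were intronic within their own gene and 25 within another gene only, and the other 279 were intronic in no annotated transcript. Among those 279, the share in both replicates was 31.5% and the ETS hexamer share 11.5%, against 31.5% and 11.6% over all 337.

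**Figure D3:**
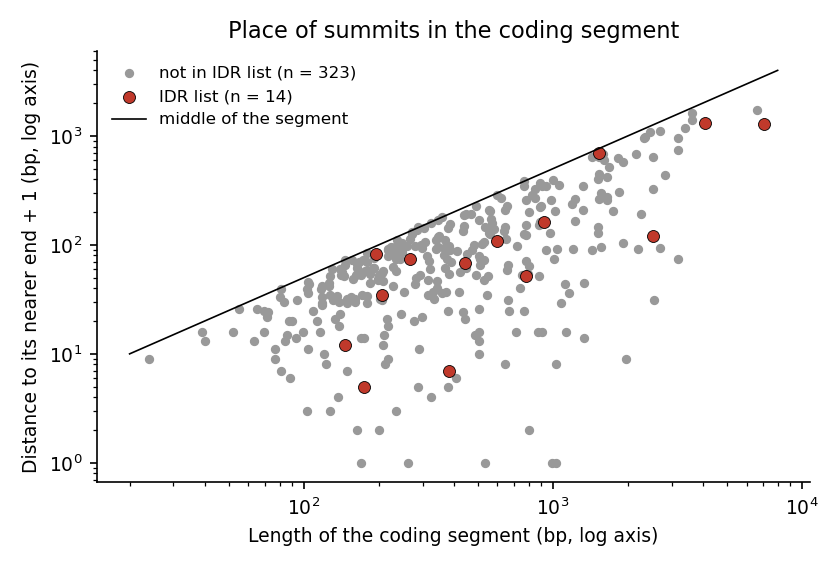
Length of the coding segment (x axis) and distance from the summit to its nearer end plus 1 bp (y axis), both in bp on log axes, for the 337 coding exon summits; each point is 1 summit, IDR summits are red, and the line marks the middle of a segment. Summits occur from the very end of segments to over 1000 bp inside, and 3 IDR summits lie within 11 bp of an end.

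Some coding exon summits had another pooled summit close by. Within 500 bp lay another summit for 112 of 337 (33.2%), against 45.9% of intron and 56.4% of promoter summits, and no 2 summits of these classes were closer than 199 bp. The neighbour was stronger in 68 of the 112 cases. It was an intron summit in 52, another coding exon summit in 27, a promoter summit in 16 and a 3′ UTR summit in 12. Of the 225 that stood alone, 72 (32%) were in both replicate lists, and of the 112 with a neighbour 34 (30.4%). The part that reads from a neighbouring peak play in these summits was not tested.

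The ETS hexamer CGGAAG, sought on both strands, was present within 50 bp of 39 of the 337 summits (11.6%, 95% exact interval 8.36 to 15.5%). In windows of the same width 400 bp to either side it was present in 3.56%, unevenly, with 19 summits having it on the left and 5 on the right. These flanks were not limited to coding sequence. The median coding segment was 368 bp long, so many of them lie outside the segment. In windows centred on every coding base that met the rule it was present in 4.87%, a ratio of 2.38. At intron summits the share was 4.34% (4.01 to 4.68%) against 2.41% of intron bases, and at promoter summits 4.63% against 3.03%, a ratio of 1.53. The octamer CCGGAAGT, which holds the hexamer, was at 12 coding exon summits (3.56%, 1.85 to 6.14%), against 0.376% of coding bases, a ratio of 9.47. At intron summits it was at 0.393% (0.298 to 0.509%) against 0.139% of intron bases, and at promoter summits at 0.369% (0.247 to 0.529%) against 0.190%. The core GGAA alone, at 60.8% of coding exon summits and 59.6% of coding bases, was about as frequent in both. Summits had nearly the base composition of coding sequence, with a mean GC content of 53.1% ± 8.47 (SD over 337 summits) against 52.6% of coding bases, while intron summits had 39.2% ± 9.23 (SD, n = 14501).

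Among hexamers of its own base composition, CGGAAG had the highest ratio of summit share to coding base share. The other 59 hexamers of that composition had a median ratio of 0.856 and a maximum of 1.81. Among all 1487 hexamers present at 10 or more of the summits it came second, after AGCGCT (17 summits, ratio 2.40). In a scan of 32896 octamers, 38 were present at 10 or more summits. An octamer rare in coding bases passes this floor only if its ratio is already high. The order within the 38 is therefore partly set by the floor and is given as a description. Its highest ratios belonged to 3 that overlap in the ETS consensus. These were CCCGGAAG at 10 summits (ratio 12.8), CCGGAAGT at 12 (9.47) and CGGAAGTG, scanned as its reverse complement CACTTCCG, at 13 (8.99). The next, GCGCCCAC, was at 10 summits with a ratio of 6.98.

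**Figure D4:**
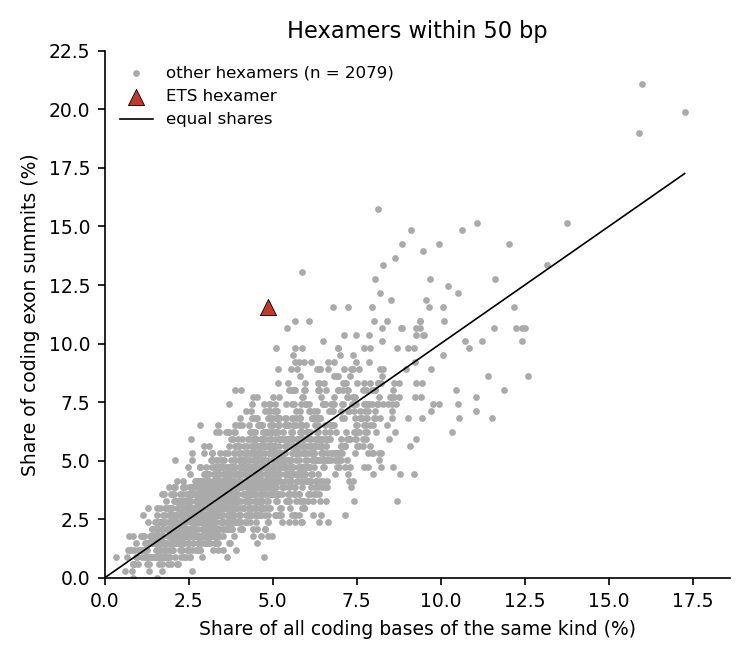
Each point is 1 of 2080 hexamers (both strands combined), placed by the share of all coding bases that met the rule with the hexamer within 50 bp (x axis, percent) and the share of the 337 coding exon summits with it (y axis, percent); the line marks equal shares. The ETS hexamer, a red triangle, is at 4.87% of bases and 11.6% of summits.

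ETS hexamers were most numerous at the summits themselves. The 39 summits held 45 hexamers within 50 bp, at a median of 15.5 bp from the summit, and 30 of them lay within 20 bp. In the 20 bp centred on the summit there were 4.45 hexamers per 100 coding exon summits, against 0.945 at intron and 1.08 at promoter summits. These densities are not scaled to each class. Over all bases, the hexamer was within 50 bp of 4.87% in coding exons, 2.41% in introns and 3.03% in promoters. Beyond 200 bp from coding exon summits, bins of the same width, not limited to coding sequence, held a median of 0.890 and at most 1.78 per 100. Nearer in, the bin centred 80 bp to the right on the plus strand held 3.56 per 100, not far below the central bin. The centres of the 12 octamers lay 1.5 to 35.5 bp from the summit. The window of 50 bp that picked the strings bounds these distances and the median of 15.5 bp. Relative to the host gene, 32 hexamers read CGGAAG on the sense strand and 13 on the antisense strand (71.1% sense), against 52.8% sense of all 9600 in coding bases. Of the 12 octamers, 7 were sense and 5 antisense.

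**Figure D5:**
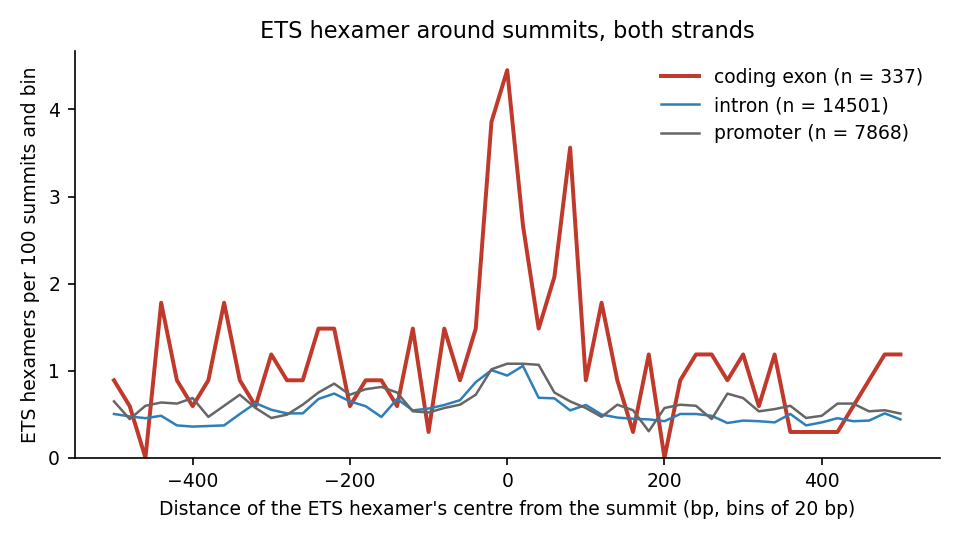
Number of ETS hexamers per 100 summits in bins of 20 bp (y axis) by the distance of the hexamer's centre from the summit in bp (x axis), for coding exon, intron and promoter summits. The coding exon line, from 337 summits, peaks at 4.45 in the central bin, while the intron and promoter lines reach about 1 there. A further high bin of the coding exon line, at 3.56, is centred 80 bp to the right. Lines are not scaled to how often the hexamer occurs over all bases of each class.

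The share with the ETS hexamer was higher among stronger coding exon summits, by less than the counting error. The hexamer was at 12 of 74 summits in the stronger 15000 pooled peaks (16.2%, 8.67 to 26.6%), at 27 of 263 in the lower 15000 (10.3%, 6.88 to 14.6%) and at 3 of 14 in the IDR list (21.4%, 4.66 to 50.8%). These intervals overlap. Intron summits had 5.69%, 3.18% and 7.37% in the same tiers. By replicate support, the hexamer was at 14.2% of the 106 coding exon summits found in both replicates, 11.0% of the 182 found in 1 and 8.16% of the 49 found in neither, again with overlapping intervals. Summits with the hexamer had a median pooled signal of 58.2 and those without it 53.7. In the lists called on single replicates, 11.6% of coding exon summits had it in replicate 3 and 8.30% in replicate 1.

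The 12 summits with the octamer had a median pooled signal of 64.2, against 54.3 over all 337, and 5 of the 12 were among the stronger 15000 peaks. Beside mthl15 and Cda5, only CG4004 (pooled signal 102) and ine, a transporter gene of the neurotransmitter family (79.5), were found in both replicates. The others ran from Pino (114) through AttD, the gene of an antibacterial peptide (58.2), RhoGEF3, an exchange factor gene (57.8), Ask1, a stress kinase gene (50.2), and Mco4, a multicopper oxidase gene (43.1), to CG7231 (38.8). The 2 not printed were in jbug, a filamin-type gene (70.2), and in edl (41.0), which encodes a SAM-domain protein that binds the ETS factors Pnt and Aop. The edl summit lay 15 bp from a replicate 1 summit and 667 bp from the nearest in replicate 3.

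The host genes included members of the ecdysone response. A coding exon summit was present in 299 of 13945 protein-coding genes (2.14%) and in 5 of 28 listed ecdysone response genes, none of them in the IDR list. Genes on this list have longer coding sequences, with a median of 2560.5 bp against 1176 bp over all genes. Eip63F-1 (148; 39.3 in replicate 1 and 111 in replicate 3) was the strongest, with its summit in a coding segment of only 39 bp. The coactivator gene tai followed (2L 9234633, pooled 74.9, replicate 1 29.1, replicate 3 37.1), 24 bp from the end of its second coding segment. The nuclear receptor gene ftz-f1 (60.5) was matched within 100 bp in replicate 3 only. Hr4, another nuclear receptor gene (40.3), was matched in replicate 1 only. Eip74EF itself had 1 coding exon summit, at 3L 17562499 in the last of 4 coding segments, which is coding in all 5 transcripts. Its pooled signal of 56.4 ranked 21326, it had a replicate 1 summit 2 bp away, and the nearest replicate 3 summit was 1014 bp away. Reads from the tagged copy, if it is a further copy, would map to this segment too. Any part of such reads in this peak was not tested.

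Host genes were also present in 7 of the 9 other lists, with 1 or 2 in each and none in the IDR list. Their shares were 4.17 to 25%. These 7 lists have 8 to 33 genes each, so 1 host alone gives a share above the 2.14% of all genes. With 1 or 2 hosts per list, whether any list held an excess of hosts was not tested. Each of the 7 lists also has a longer median coding sequence (1470 to 7371 bp) than all genes (1176 bp). Of 8 ETS factor genes, 2 were hosts, Eip74EF and Ets96B (61.4, found in both replicates). Of 26 homeotic and segmentation genes 2 were, hth (75.5) and kni (55.8, with the ETS hexamer), and of 19 muscle genes 2, Tm1 (77.6) and the nesprin gene Msp300 (52.6). Cell adhesion and axon guidance genes had 2 of 33, robo2 (50.2) and trn (45.9), microtubule and spectrin genes 1 of 11, Map205 (40.8), chromatin regulators 1 of 23, Iswi, and signalling receptors and ligands 1 of 24, N (74.5). None of 11 extracellular matrix genes and none of 26 cytosolic ribosomal protein genes was a host. Most host genes, 264 of 299, held 1 summit and 32 held 2. The genes with 3 were bif, Exn (highest signal 109.8) and CG32425 (50.5).

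The summits nearest the 500 bp limit had signals of 43.6 to 94.9 on its 2 sides. Just inside were CanB2 (502 bp from a TSS, pooled signal 60.7), dnt (94.9) and CG14406 (516 bp), and just outside Ids (499 bp, 43.6), Zyx (498 bp, 51.8) and Brd7-9 (494 bp, 94.4). None of the 6 was in the IDR list. In all, 301 coding summits outside UTRs lay within the limit and were left out, with a median signal of 71.0 against 54.3 for the 337. Of the 301, 26 were IDR peaks and 40.9% were in both replicates, against 31.5% of the 337.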

How the data were processed

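Peak lists of ChIP-seq on whole embryos were used: 1 per replicate, 1 called on pooled reads and the IDR list. Alignments were to dm6, and the authors, per the descriptions deposited with the files, called peaks against a control library and derived the IDR list of 5004 peaks from the other 3 lists, which hold 30000 peaks each. The aligner, peak caller and IDR threshold are not stated in the labels or file headers used here. The deposited signal is the authors' value for each peak, and depth is unknown.

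Each summit (1-based) was classed by Ensembl release 115 gene models (BDGP6.54, the dm6 assembly). Strings were sought within 50 bp of summits in the RefSeq sequence of that assembly, and the same window was read at every base of a class. Symbols of listed genes were updated through RefSeq synonyms, and mf was not matched. Intervals are exact Clopper-Pearson, 95%. Replicates are biological per the labels. Nothing was tested between conditions, since there is 1 group. The members, gene lists and strings were chosen with earlier results of these data known. Genes named are all IDR members, the 10 strongest other members, up to 3 hosts per list and the summits nearest the 500 bp limit. Hr4, octamer hosts and genes with 3 summits were added after their values were seen. In checks on planted positions, 200 of 200 coding and 0 of 200 intron positions were classed as coding, and 200 of 200 planted strings were found. Python 3.11.15 with numpy 2.4.6, pandas 2.3.3 and scipy 1.17.1 was used. Alternatives covered the TSS limit, TSS set, UTR rule, list depth, single replicates, match distance, window, isoforms and, added after the data had been seen, the RefSeq annotation.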

Additional observations from a re-analysis of the deposited data

How the results depend on the processing

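Restricting the pooled list to its stronger 15000 peaks left 74 coding exon summits, with a median rank of 9921, 79.7% of them in both replicate lists and 16.2% with the ETS hexamer. Calling on a single replicate gave 335 to 542 coding exon summits and hexamer shares of 8.30 to 11.6%, the count of 542 and the share of 8.30% both coming from replicate 1 alone. The share in both replicates was 20.2% with summits matched within 50 bp and 43.0% within 200 bp. A window of 100 bp to either side gave a hexamer share of 17.5%, by construction higher. The remaining settings, among them a TSS limit of 250 bp (437 summits, 20 in the IDR list) or 1000 bp (236 and 12), left each value within 1.5 times or within its interval. RefSeq gave 338 summits, of which 337 were shared. No paired analysis was possible because there is 1 group. Depth is unknown, so the absence of a summit in a coding exon does not show that the factor is absent there. Regions where reads cannot be placed uniquely were not left out of the coding bases.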

Other observations

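Strings of CAA, CAG and AAC triplets also recurred at coding exon summits. The octamers AGCAACAA (17 summits, 5.04% against 1.26% of coding bases) and AACAGCAA (16, ratio 3.91) were in places 7 and 8 by ratio, and CAACAGCA (20, ratio 2.44) in place 23, of the 38 octamers at 10 or more summits, while the plain hexamer CAGCAG was at 19.9% of summits against 17.3% of coding bases, a ratio of 1.15. CAGCAG was at 15 of the 49 summits found in neither replicate (30.6%, 95% exact interval 18.3 to 45.4%), 29 of the 182 found in 1 (15.9%, 10.9 to 22.1%) and 23 of the 106 found in both (21.7%, 14.3 to 30.8%). Of the 39 summits with the ETS hexamer, 3 held CAGCAG. The glue protein gene Sgs3, known for its long threonine-rich repeat, held 2 coding exon summits, with pooled signals of 113 and 79.5, both found in both replicates. It was singled out after its values were seen.

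ETS hexamers had a further high bin 80 bp to the right of coding exon summits on the plus strand of the genome, with 12 hexamers, 1 at each of 12 summits in 12 genes, against 15 in the central bin and at most 6 in any bin beyond 200 bp. The hosts include the IDR members Pde1c, CG15822 and otp. The matching bin on the left held 5. The bin was noticed in the plot and its position was not chosen beforehand.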
